A study of Mus musculus with 12 samples.

Results

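The miR-17, miR-18 and miR-19 seed families were followed in sorted mouse endoderm and pancreatic progenitors from embryonic day (E) 8.5 to E11.5. Members were the entries of the count table named after miR-17, miR-20a, miR-20b, miR-93, miR-106a, miR-106b, miR-18a, miR-18b, miR-19a and miR-19b, both as mature arms (mmu-miR-17-5p, mmu-miR-20a-5p, mmu-miR-93-5p, mmu-miR-106b-5p, mmu-miR-18a-5p, mmu-miR-19b-3p and others) and as precursors such as mmu-mir-17, with the mouse prefix mmu left out from here on. They numbered 27 of 1053 entries, 16 of them mature arms and 11 of them precursors. They lie in 3 genomic clusters, and the rule took no measured value into account.

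Small RNA was sequenced from 12 libraries, 3 at each of 4 stages. At E8.5 the cells carried Foxa2-CreER, a tamoxifen-inducible Cre recombinase made from the Foxa2 locus, together with the red Cre reporter tdTomato, and were sorted as endoderm from whole embryos after tamoxifen had been given. Foxa2 is also active outside the gut endoderm, in the notochord and floor plate. At the 3 later stages, E9.5 to E11.5, sorted cells instead carried Pdx1-Cre, a transgenic Cre driven by the regulatory sequence of Pdx1, a gene of the pancreatic and duodenal epithelium, with the same reporter, and came from the trunk. All groups therefore shared tdTomato, while Cre driver, dissected region and tamoxifen changed together with stage between E8.5 and the later stages. Per the study's methods the fathers carried mir-302 GFP/+, in which eGFP takes the place of 1 mir-302 copy. The labels name no mir-302 genotype for the embryos, and they do not say whether the 3 libraries of a stage came from separate litters, so p-values measure the spread between these libraries. A number in the library names was shared within each stage and differed between stages, so whatever it marks cannot be told apart from stage.

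A miRNA recognises target mRNAs mainly through its seed, bases 2 to 8 of the mature strand, and miRNAs with the same seed are expected to share many targets. The mir-17-92 cluster, known as oncomiR-1, and its paralogues mir-106a-363 and mir-106b-25 encode the miR-17, miR-18 and miR-19 seed families beside miR-92a, miR-363 and miR-25. Members of the miR-17 family are known for lowering the cell cycle inhibitor p21 and the pro-apoptotic protein Bim, and loss of mir-17-92 in mice impairs growth of several embryonic tissues. Each hairpin gives a 5p and a 3p arm, of which usually 1 is loaded and the other, the passenger arm, is mostly degraded.

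The mature sequences define the families and show how little separates their members. They were taken from RefSeq (GRCm38.p6), where all 16 mature members were found. They are written 5′ to 3′ with the seed in capitals, beginning with the 6 members of the miR-17 seed, followed by the 2 of the miR-18 seed and the 2 of the miR-19 seed, and ending with 1 member each of the miR-302 and miR-290 families, which are set beside them for their overlapping seed.
miR-93-5p: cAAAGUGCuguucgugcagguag
miR-20a-5p: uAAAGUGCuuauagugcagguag
miR-17-5p: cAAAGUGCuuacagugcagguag
miR-106b-5p: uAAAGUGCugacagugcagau
miR-106a-5p: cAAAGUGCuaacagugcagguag
miR-20b-5p: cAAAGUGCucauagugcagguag
miR-18a-5p: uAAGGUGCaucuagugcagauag
miR-18b-5p: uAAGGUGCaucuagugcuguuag
miR-19b-3p: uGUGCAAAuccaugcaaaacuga
miR-19a-3p: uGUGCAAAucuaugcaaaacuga
miR-302b-3p: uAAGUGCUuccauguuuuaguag
miR-294-3p: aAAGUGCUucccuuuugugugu
The miR-17 seed AAAGUGC and the seed AAGUGCU of miR-302b-3p and miR-294-3p share a run of 6 bases, AAGUGC, placed 1 base apart in the mature strand. The miR-18 and miR-19 seeds each share no run longer than the 4 bases GUGC with AAAGUGC. Counted from the 5′ end, miR-106a-5p differed from miR-17-5p by the single substitution A10U, and miR-19a-3p differed from miR-19b-3p by U11C. miR-17-5p differed from miR-20a-5p at 2 positions, C1U and C12U. Reads of such near-identical members could be divided or shared between them by the counting, so the split between single members is less certain than the sum over a seed.

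The members of mir-17-92 that were followed here lie at chr14:115043671-115044391 on the plus strand (GRCm38), inside the long non-coding host gene Mir17hg. The annotation lets each of their hairpins overlap an annotated Mir17hg exon. mir-106b and mir-93 lie at chr5:138165523-138165818 on the minus strand inside Mcm7, which encodes a subunit of the replicative helicase. The annotation places Mir106b in an intron of Mcm7 and lets Mir93 overlap an Mcm7 exon. The hairpins of miR-106a, miR-18b, miR-20b and miR-19b-2 lie between genes at chrX:52741983-52742567 on the minus strand. miR-19b-3p is made from both the chromosome 14 and the chromosome X cluster and was assigned to neither.

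Depth limited what could be seen of these families. Library totals ran from 53996 to 1103383 counts, and those of E9.5 were the 3 lowest, at 53996 to 80075. A level of 3 counts, used as the floor of detection, corresponded to 4.34 to 7.75 CPM (counts per 1000000 of TMM-scaled library size) in E8.5 libraries, 32.0 to 75.9 in those of E9.5, 11.4 to 25.8 in those of E10.5 and 2.74 to 6.84 in those of E11.5. Of the 324 member values, 114 were 0, a further 78 were from 1 to 9 counts, and 120 were at least 25 counts. Libraries of a stage differed far beyond counting error, with a chi-square per degree of freedom of 41.5 to 137, and the common biological coefficient of variation was 1.19. Marker miRNAs moved with stage as well. The pancreatic marker miR-375-3p ran from 16224 to 19537 CPM at E8.5 and from 17322 to 82362 CPM in the Pdx1-Cre libraries, and the 5 epithelial markers of the miR-200 family from 9026 to 11028 and from 16457 to 38948 CPM. The liver marker miR-122-5p was at 463 to 593 CPM in E8.5 libraries and at 38765 to 130754 CPM later, the 2 endothelial markers (miR-126a arms) at 1821 to 2281 and at 32.5 to 429 CPM, and the 3 muscle markers at 6286 to 26546 CPM, 5278 to 26855 CPM and 266 to 3518 CPM in E8.5, E9.5 and later libraries. The 5 pluripotency markers of the miR-302 and miR-290 families summed to 35959 to 63647 CPM at E8.5 and to 373 to 10583 CPM later. The 5 mesenchymal markers were at 6714 to 13171 and 1410 to 11400 CPM, with miR-199a-5p at 0 throughout E8.5, and miR-133a-3p of the muscle list was at 0 in all libraries of E10.5 and E11.5. The 2 of 4 erythroid markers in the table summed to 32.5 to 834 CPM, and the 3 neural ones to 0 to 507 CPM over all libraries. The 3 of 5 leukocyte markers in the table had their highest mean at E9.5, 1465 CPM with libraries from 10.7 to 2680 CPM, against 116 to 421 CPM in E8.5 libraries and 11.4 to 382 CPM in those of E10.5 and E11.5, where miR-142a-5p was at 0. The part of other cell types in the member levels was not tested. In sorted bulk cells, fewer cells of a type and less of an miRNA per cell cannot be told apart.

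The miR-17 seed family was the most abundant of the 3 and stood near 11394 CPM at E8.5 against means of 4994 to 5277 CPM at the later stages. The 6 members together reached 12310, 11974 and 9898 CPM in replicates 1 to 3 of E8.5, in which order all library values are given here. They reached 2144, 5254 and 8244 CPM at E9.5, 4754, 5557 and 4672 CPM at E10.5 and 5015, 6018 and 4797 CPM at E11.5. Every E8.5 library lay above every later library. The share of all seeds for which this held was not computed, so it is a description. By stage means the family was 2.19-fold higher at E8.5 than at E9.5, 2.28-fold higher than at E10.5 and 2.16-fold higher than at E11.5, and it ranked 16th among the 535 seeds and unmatched entries at E8.5 and from 27th to 31st later. As a share of library counts it held 1.24% ± 0.114 (SD, n = 3) at E8.5.

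The stage difference of this seed was close to 1 log2 unit but did not pass the test across all seeds. With edgeR's quasi-likelihood test and Benjamini-Hochberg adjustment over 308 seeds, the fitted log2 fold change was −0.84 ± 0.44 (SE; adjusted p = 0.276) for E9.5 against E8.5 and −1.03 ± 0.44 (adjusted p = 0.132) for E11.5 against E8.5. In the same comparisons 7.14% and 12.3% of the seeds were called. Leaving out E9.5 replicate 3 brought both past the threshold, at −1.49 (adjusted p = 0.0302) and −1.12 (adjusted p = 0.0475) in the same test, whereas without E9.5 replicate 1 the first shrank to −0.33 (adjusted p = 0.629). E11.5 against E8.5 was also called when only these 6 libraries were fitted (−1.03, adjusted p = 0.0051, edgeR), and DESeq2 gave −1.16 (adjusted p = 0.0885). Between neighbouring later stages the fitted change was −0.32 ± 0.44 for E10.5 against E9.5 and 0.13 ± 0.43 for E11.5 against E10.5 (edgeR adjusted p = 0.695 and 0.965, with 5.84% and 0.325% of seeds called). The sign of the last value turned with RLE scaling, at −0.11.

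**Figure D1:**
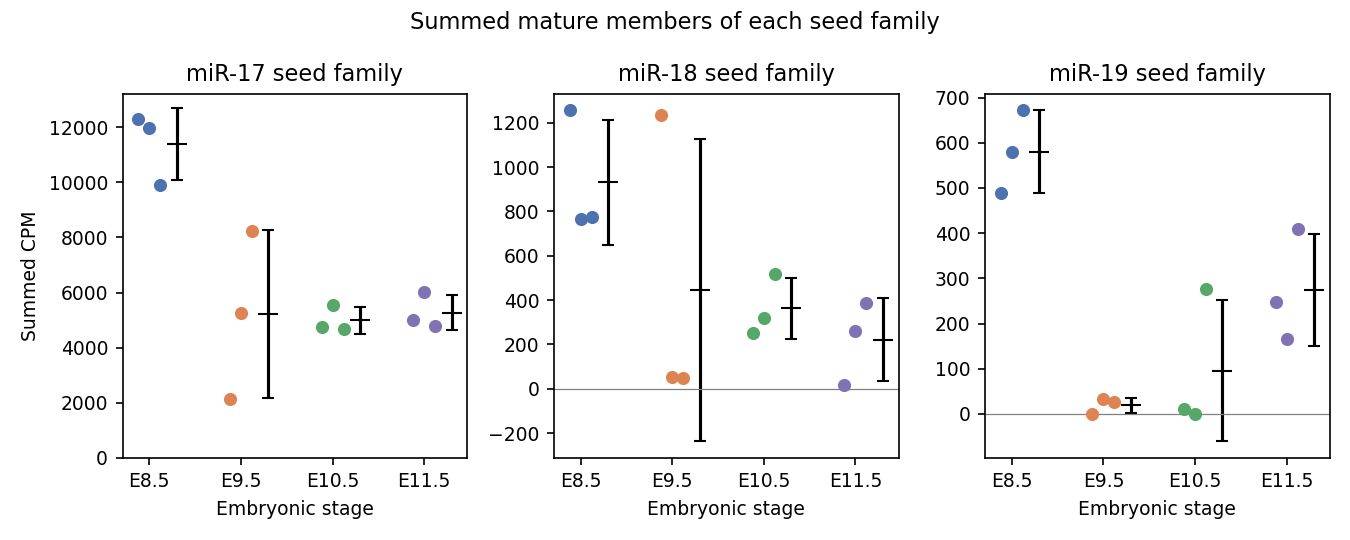
Summed CPM of the mature members of each seed family (y axes, 1 scale per panel) by embryonic stage, with 1 point per library and the mean ± SD of 3 libraries beside them. The miR-17 seed family lay at 9898 to 12310 CPM in the E8.5 libraries and at 2144 to 8244 CPM in all later ones, while the E9.5 libraries of the miR-18 seed family spread from 50.6 to 1234 CPM.

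miR-93-5p, the main arm of mir-93 in the mir-106b-25 cluster, carried most of the miR-17 seed. It was counted at 7623, 8207 and 5813 CPM at E8.5, at 568, 4976 and 1340 CPM at E9.5, at 3978, 3685 and 3199 CPM at E10.5 and at 3481, 4688 and 4159 CPM at E11.5. No later library reached the lowest E8.5 library, and the 6 libraries of E10.5 and E11.5 overlapped. The fitted change was −1.65 ± 0.60 for E9.5 against E8.5 (edgeR adjusted p = 0.122) and −0.81 ± 0.59 for E11.5 against E8.5 (edgeR adjusted p = 0.527). Without E9.5 replicate 2, the library with the highest E9.5 value, the first became −2.65 (adjusted p = 0.00359), and with only entries that had at least 10 counts in every library it was −1.65 (adjusted p = 0.0452), both by edgeR. miR-93-5p held 69.4% of all counts of its seed. Its mean share was 63.1% ± 5.00 in the E8.5 libraries, 45.8% ± 42.6 in those of E9.5, 72.8% ± 9.46 in those of E10.5 and 78.0% ± 8.64 in those of E11.5 (SD, n = 3 each), without a test.

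The E9.5 libraries differed in which member made up the miR-17 seed. miR-17-5p gave 89 of 132 seed counts in replicate 1 (67.4%, exact 95% interval 58.7 to 75.3%), miR-93-5p gave 466 of 492 in replicate 2 (94.7%, 92.4 to 96.5%), and miR-20a-5p gave 266 of 326 in replicate 3 (81.6%, 77.0 to 85.7%). In each of the other 9 libraries miR-93-5p led, with 58.7% to 86.7% of the seed counts. These intervals cover counting error only, since the reads were not collapsed to molecules. The E9.5 means of miR-17-5p and miR-20a-5p therefore rest mostly on 1 library each.

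**Figure D2:**
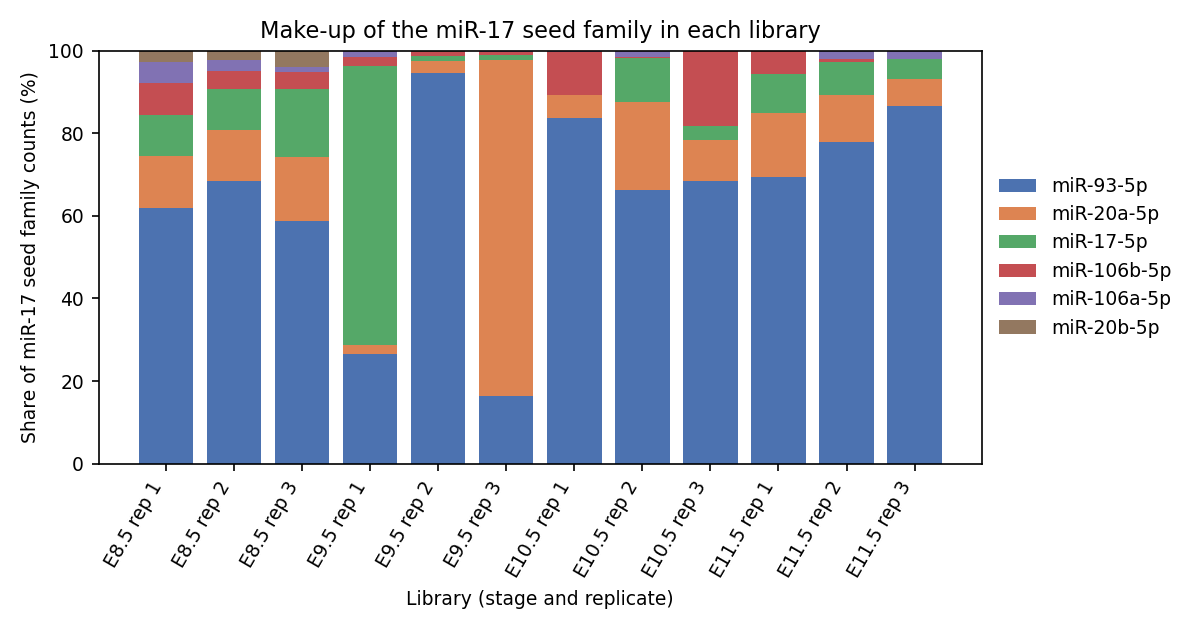
Share of the miR-17 seed family counts taken by each of its 6 members (y axis, percent) in each of the 12 libraries (x axis). A different member leads in each E9.5 library, miR-17-5p at 67.4%, miR-93-5p at 94.7% and miR-20a-5p at 81.6%, while miR-93-5p leads in the other 9.

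miR-20a-5p and miR-17-5p are the miR-17 seed members of the mir-17-92 cluster. miR-20a-5p stood at 1560, 1480 and 1546 CPM at E8.5, at 48.7, 150 and 6726 CPM at E9.5, at 263, 1185 and 460 CPM at E10.5 and at 777, 681 and 315 CPM at E11.5. It was the only member whose mean was higher at E9.5 than at E8.5, and this came from replicate 3 alone. Without that library the fitted change for E9.5 against E8.5 was −3.92 (edgeR adjusted p = 0.0392). miR-17-5p was at 1211, 1170 and 1619 CPM at E8.5, at 1445, 64.1 and 101 CPM at E9.5, at 7.61, 584 and 160 CPM at E10.5 and at 470, 479 and 225 CPM at E11.5. For both, each E11.5 library was lower than each E8.5 library, with fitted changes of −1.37 ± 1.13 for miR-20a-5p (edgeR adjusted p = 0.616) and −1.77 ± 1.24 for miR-17-5p (edgeR adjusted p = 0.523). Fitting only the E8.5 and E11.5 libraries gave −1.76 for miR-17-5p with an edgeR adjusted p of 0.0303.

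miR-106b-5p, the neighbour of miR-93 in Mcm7, was at 941, 542 and 413 CPM at E8.5, at 48.7, 42.7 and 50.6 CPM at E9.5, at 495, 17.2 and 845 CPM at E10.5 and at 287, 45.7 and 3.61 CPM at E11.5. The E9.5 values rest on 3, 4 and 2 counts, and the later libraries of a stage differed by over 10-fold. E11.5 lay below E8.5 in every library, with a fitted change of −2.50 ± 1.45 (edgeR adjusted p = 0.361). limma voom gave −4.18 for it with an adjusted p of 0.0179.

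The chromosome X members of the miR-17 seed had their highest means at E8.5. miR-20b-5p had 191, 102 and 277 counts at E8.5 (330, 263 and 400 CPM), 0, 2 and 0 counts at E9.5, 0, 0 and 1 counts at E10.5 and 0, 3 and 2 counts at E11.5. It was the only member called by edgeR with all 12 libraries and the main settings, at a fitted −7.29 ± 2.30 for E11.5 against E8.5 (edgeR adjusted p = 0.0410). It passed the filter on low counts through the E8.5 libraries alone, the group in which it was high, which partly sets the direction of its change. From the summed counts it was 163-fold higher at E8.5 than at E11.5, with a 95% counting interval of 69.3 to 503, and lower in 3 of 3 libraries. The call was also made by DESeq2 (adjusted p = 0.000121) and limma voom (adjusted p = 0.000262), but not with the unfiltered table or with counts under 10 set to 0 (edgeR adjusted p = 0.0992 and 0.103), and leaving out any 1 library of E8.5 or E11.5 moved the edgeR adjusted p to between 0.0892 and 0.150. Leaving out E9.5 replicate 2 or 3 also ended it, at 0.0581 and 0.0564 (edgeR adjusted p). At E9.5 the summed ratio was 33.5 (9.23 to 277), a comparison limited by the shallow libraries. The precursor entry mir-20b of the same hairpin was not called for E11.5 against E8.5, at −2.04 ± 2.05 (edgeR adjusted p = 0.715). Its libraries overlapped between these stages, so the call is one of the miR-20b-5p entry alone.
miR-106a-5p, 1 base away from miR-17-5p, kept counts in more of the later libraries than miR-20b-5p did. It was counted at 645, 310 and 105.5 CPM at E8.5, at 32.5, 0 and 25.3 CPM at E9.5, at 11.4, 85.9 and 3.90 CPM at E10.5 and at 0, 122 and 92.6 CPM at E11.5. E11.5 replicate 2 lay above the lowest E8.5 library, so the stages overlapped, and the fitted change was −2.30 ± 1.90 (edgeR adjusted p = 0.616). Whether it differed from miR-20b-5p was not tested.

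The miR-18 seed family is 1 substitution in the seed away from the miR-17 family and consisted of miR-18a-5p almost alone. miR-18a-5p stood at 1235, 765 and 773 CPM at E8.5, at 1234, 53.4 and 50.6 CPM at E9.5, at 251, 318 and 518 CPM at E10.5 and at 18.2, 260 and 388 CPM at E11.5. E9.5 replicate 1 alone matched the E8.5 level, and it was also the E9.5 library in which miR-17-5p was high. All 6 libraries of E10.5 and E11.5 lay below the 3 of E8.5. The fitted change of the seed family was −0.89 ± 1.22 for E9.5 and −1.97 ± 1.24 for E11.5 against E8.5 (edgeR adjusted p = 0.665 and 0.416), and limma voom called miR-18a-5p itself for E11.5 at −2.54 (adjusted p = 0.0452). Without E9.5 replicate 1 the value for E9.5 became −3.74, and without E9.5 replicate 2 it became −0.24. E10.5 against E9.5 gave −0.43 ± 1.21, which became 2.37 without E9.5 replicate 1, and E11.5 against E10.5 gave −0.65 ± 1.21. miR-18b-5p, its chromosome X relative, was counted 13 and 1 times in E8.5 replicates 1 and 3 and in no other library.

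The miR-19 seed family was the member group with the lowest counts at E9.5. The sum of miR-19a-3p and miR-19b-3p stood at 489, 579 and 672 CPM at E8.5, at 0, 32.0 and 25.3 CPM at E9.5, at 11.4, 0 and 277 CPM at E10.5 and at 248, 166 and 409 CPM at E11.5. The 3 E9.5 libraries held 0, 3 and 1 counts, at or below the floor. The groups E9.5 and E8.5 did not overlap, and neither did E11.5 and E8.5, as a description without the share over all seeds. The fitted change was −4.60 ± 1.85 for E9.5 against E8.5 and −1.01 ± 1.53 for E11.5 against E8.5 (edgeR adjusted p = 0.156 and 0.818), and DESeq2 called the first at −4.34 (adjusted p = 0.0304). E10.5 against E9.5 gave 2.09 ± 1.73, which turned to −1.76 without E10.5 replicate 3, the only E10.5 library with more than 3 counts.
miR-19b-3p made up most of it, at 367, 571 and 545 CPM at E8.5, at 0, 21.4 and 0 CPM at E9.5, at 7.61, 0 and 277 CPM at E10.5 and at 176, 0.91 and 408 CPM at E11.5. Its fitted change for E11.5 against E8.5 was −1.34 ± 1.77 (edgeR adjusted p = 0.807). miR-19a-3p stood at 123, 7.75 and 127 CPM at E8.5, at 0, 10.7 and 25.3 CPM at E9.5, at 3.81, 0 and 0 CPM at E10.5 and at 72.9, 165 and 1.20 CPM at E11.5. In E11.5 replicate 2 the 180 counts of miR-19a-3p stood beside 1 count of miR-19b-3p, and in replicate 3 the reverse held, with 1 and 339 counts. These 2 arms differ by 1 base, and their sum was at 248, 166 and 409 CPM in the E11.5 libraries.

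Over single members, few comparisons could be called. By edgeR none of the 19 members tested was called for E9.5 against E8.5, where 5.60% of the 571 entries tested were called, and 5 members had an unadjusted p under 0.05 (20% of entries). None was called for E10.5 against E9.5 (background 4.38%), with 1 member at an unadjusted p under 0.05 (18.2% of entries), or E11.5 against E10.5 (background 0.350%), with 2 such members (10.7% of entries). For E11.5 against E8.5, miR-20b-5p was called against a background of 11.6%, of which 6.30% of entries were called lower, and 2 members had an unadjusted p under 0.05 (23.3% of entries). DESeq2 called no member in the first 3 comparisons and 1 in the last, and limma voom called none and 3. The other 8 members were too low to be tested, and 7 of the 19 tested passed the filter only with the help of E8.5 libraries, so counts over the tested members describe what passed and support nothing about the families.
Among all 27 members, the mean was lower at E9.5 than at E8.5 for 26 and lower at E11.5 than at E8.5 for 24. The share of all entries with a lower mean was not computed, so these counts have no background and are a description. For 12 members every E9.5 library was lower than every E8.5 library. Among the 19 tested members this held for 11, beside 27.5% of the 571 entries tested. For E11.5 against E8.5 the same held for 10 members, and for 8 of the 19 tested, beside 21.2% of the entries tested. No member separated E10.5 from E9.5 or E11.5 from E10.5, where 15.8% and 13.5% of entries did. The median fitted change of the 19 tested members was −1.77 for E11.5 against E8.5, beside −0.07 for all 571 entries, and stayed at −1.77 with the 1 member without E11.5 counts set to its bound. These medians are given as a description, since 7 of the 19 members passed the filter only with the E8.5 libraries, which partly sets their sign. For E9.5 against E8.5 it was −3.74, or −2.90 with 3 such members at their bound, beside −0.84 for all entries. That shift over all entries was −0.21 with RLE scaling and −1.10 with library size alone.

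**Figure D3:**
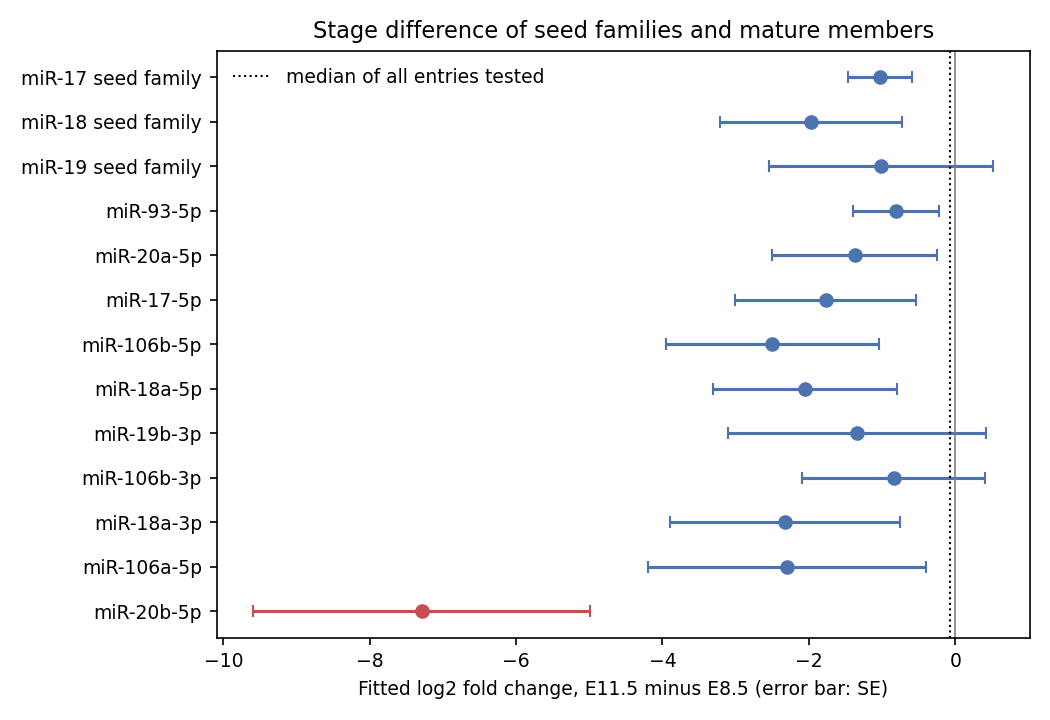
Fitted log2 fold change of E11.5 against E8.5 (x axis, error bars ± SE) for the 3 seed families and 10 mature members, with a dotted line at the median of all 571 entries (−0.07). All 13 values drawn are below 0, and only miR-20b-5p, in red at −7.29, passed the adjusted threshold. Of the mature members tested but not drawn, miR-93-3p was fitted higher, at 0.47, and miR-19a-3p, miR-17-3p and miR-20a-3p were fitted lower.

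The 3 clusters were compared by the summed CPM of their mature arms, with miR-92a, miR-25 and miR-363 left out. mir-106b-25 had the highest mean at every stage but E9.5, and stood at 9188, 9517 and 7078 CPM at E8.5, at 633, 5072 and 1618 CPM at E9.5, at 4747, 3796 and 4516 CPM at E10.5 and at 4062, 5146 and 4934 CPM at E11.5. mir-17-92 stood at 4792, 3859 and 4515 CPM at E8.5, at 2744, 299 and 7005 CPM at E9.5, at 990, 2577 and 1586 CPM at E10.5 and at 1411, 1668 and 974 CPM at E11.5. At E9.5 its mean was the higher one, 3349 against 2441 CPM. mir-106a-363 was lowest, at 1024, 749 and 575 CPM at E8.5, at 32.5, 32.0 and 25.3 CPM at E9.5, at 11.4, 85.9 and 7.79 CPM at E10.5 and at 0, 124 and 95.005 CPM at E11.5.
All 3 were higher in every E8.5 library than in every library of E10.5 and E11.5, and the sizes differed. No background of such separation was computed for sums, so this is a description. At E11.5 the mean of E8.5 was 1.82-fold higher for mir-106b-25, 3.25-fold higher for mir-17-92 and 10.7-fold higher for mir-106a-363. At E10.5 the 3 ratios were 1.97, 2.56 and 22.3, of which the last rests on 3, 10 and 2 counts in the E10.5 libraries. At E9.5 they were 3.52, 1.31 and 26.2, with mir-106b-25 and mir-17-92 in the reverse order. There the last rests on 2, 3 and 1 counts. The difference between clusters was not tested. As shares of the 3 clusters, mir-106b-25 held 62.3% ± 4.69 at E8.5 and 76.9% ± 4.62 at E11.5, mir-17-92 held 32.1% ± 4.89 and 22.0% ± 5.09, and mir-106a-363 held 5.62% ± 1.08 and 1.13% ± 0.980 (SD, n = 3 each). At E9.5 the share of mir-17-92 ran from 5.53% to 81.0%, so no order of these 2 larger clusters could be read there. Adding precursors took the mean of mir-106a-363 to 161 CPM at E10.5, mainly through the precursor mir-20b. With precursors, its mean at E8.5 was 7.04-fold that at E10.5 and 9.84-fold that at E11.5.

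**Figure D4:**
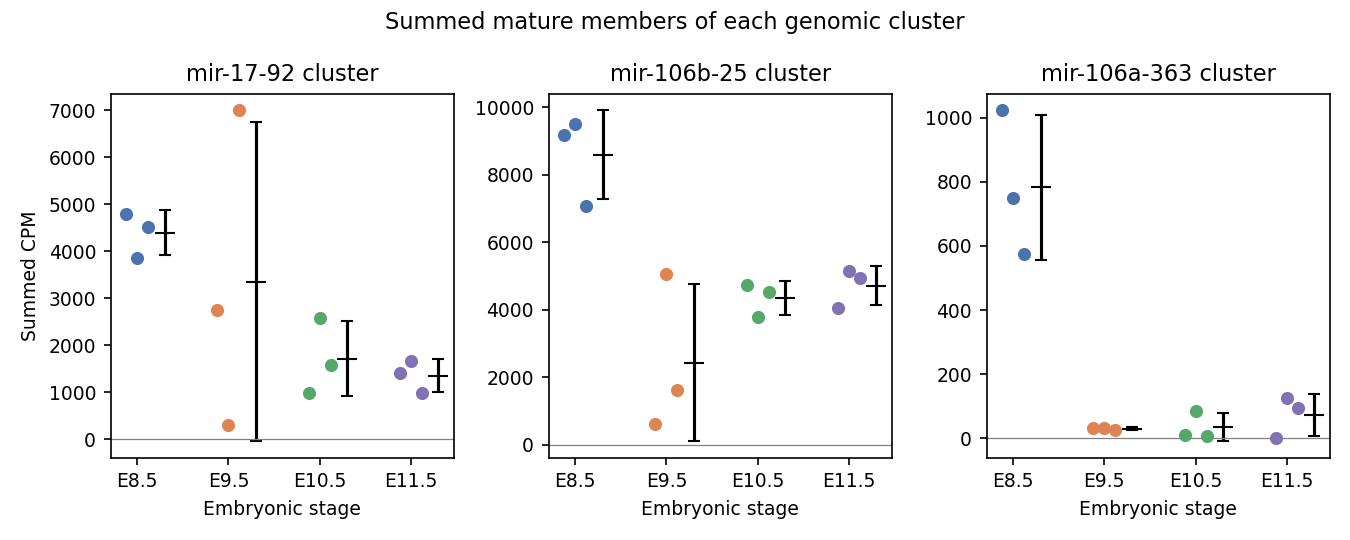
Summed CPM of mature members of mir-17-92, mir-106b-25 and mir-106a-363 (y axes, 1 scale per panel) by stage, with 1 point per library and the mean ± SD of 3 libraries. The 3 E8.5 libraries are the highest in each panel except for 1 mir-17-92 library of E9.5 at 7005 CPM, and mir-106a-363 lies at 0 to 124 CPM after E8.5.

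The cluster partners had their highest mean at E8.5 too, and their stage differences are given without a test. miR-92a-3p, which is made from both mir-17-92 and mir-106a-363, had a mean of 229861 ± 26719 CPM (SD, n = 3) at E8.5 and of 70592 ± 7132, 75590 ± 8791 and 81455 ± 22572 CPM at the 3 later stages. miR-25-3p had means of 8687 ± 1093, 3174 ± 584, 4941 ± 911 and 6463 ± 1397 CPM over the 4 stages, and miR-363-3p of 2024 ± 233, 99.1 ± 113, 121 ± 106.04 and 97.1 ± 133 CPM.

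Passenger arms were mostly far below the main arms. miR-93-5p held 98.0% of the counts of both mir-93 arms and miR-17-5p 90.4% of both mir-17 arms when summed over the libraries. miR-18a-5p held 75.3% of both of its arms, with miR-18a-3p at 329, 204 and 390 CPM at E8.5, at 16.2, 21.4 and 75.9 CPM at E9.5, at 15.2, 490 and 206 CPM at E10.5 and at 54.7, 84.2 and 44.5 CPM at E11.5. The order was less settled for mir-106b and, at E10.5, for mir-17, and for mir-18b the 3p arm had more counts. miR-17-3p had 118 counts beside 2 of miR-17-5p in E10.5 replicate 1, which left miR-17-5p with 48.5% of both arms over that stage. miR-106b-5p led miR-106b-3p in 7 of 12 libraries, including the 3 of E10.5, but held 41.9% of both arms over all libraries and 16.2% over those of E11.5. miR-106b-3p stood at 581, 767 and 622 CPM at E8.5, at 16.2, 32.0 and 152 CPM at E9.5, at 270, 8.59 and 468 CPM at E10.5 and at 244, 413 and 443 CPM at E11.5. Its fitted change for E11.5 against E8.5 was −0.84 ± 1.25 and that of miR-18a-3p was −2.33 ± 1.57 (edgeR adjusted p = 0.836 and 0.487).
The remaining tested passenger arms varied strongly between libraries of a stage. miR-93-3p had 25, 0 and 159 counts at E8.5, 0, 2 and 3 at E9.5, 1, 10 and 1 at E10.5 and 22, 0 and 274 at E11.5. miR-17-3p had 143, 90 and 1 counts at E8.5, 0, 0 and 1 at E9.5, 118, 0 and 0 at E10.5 and 8, 0 and 0 at E11.5. miR-20a-3p had 51, 0 and 40 counts at E8.5 and 62 counts in E10.5 replicate 3, and was at 0 in the other 8 libraries outside E8.5 and in E8.5 replicate 2. miR-18b-3p, which was not tested, had 15, 68 and 47 counts at E8.5 and 1 count over the 9 later libraries together. It was the more abundant arm of mir-18b, with 131 counts over all libraries against 14 of miR-18b-5p.

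Precursor entries, to which reads outside the mature arms can be assigned, were low as well. The precursor mir-17 had 5, 17 and 51 counts at E8.5, none at E9.5, 57, 0 and 3 at E10.5 and 0, 4 and 29 at E11.5, so it overlapped between E8.5 and the 2 last stages. mir-93 was the most abundant precursor, at 247, 380 and 364 CPM at E8.5, at 16.2, 182 and 50.6 CPM at E9.5, at 285, 34.4 and 46.8 CPM at E10.5 and at 196, 326 and 435 CPM at E11.5. Its E11.5 libraries covered the range of E8.5. The precursor mir-20b had 48, 48 and 191 counts at E8.5, 0, 0 and 1 at E9.5, 1, 20 and 49 at E10.5 and 7, 0 and 84 at E11.5. It thus kept counts in later libraries in which miR-20b-5p had 0 to 2.
mir-106b had 161, 5 and 38 counts at E8.5, 1, 0 and 0 at E9.5, 0, 0 and 9 at E10.5 and 31, 13 and 9 at E11.5. mir-19b-1 had 42, 2 and 26 counts at E8.5, none at E9.5 or E10.5 and 0, 73 and 4 at E11.5. Of the precursors that were not tested, mir-20a reached 158 counts in E8.5 replicate 1, mir-18b 121 counts in E8.5 replicate 2, mir-18a 65 and mir-106a 42 counts at E8.5, and mir-19a and mir-19b-2 at most 3 counts. mir-18b was at 0 in all libraries of E10.5 and E11.5, and also in E8.5 replicate 3.

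**Figure D5:**
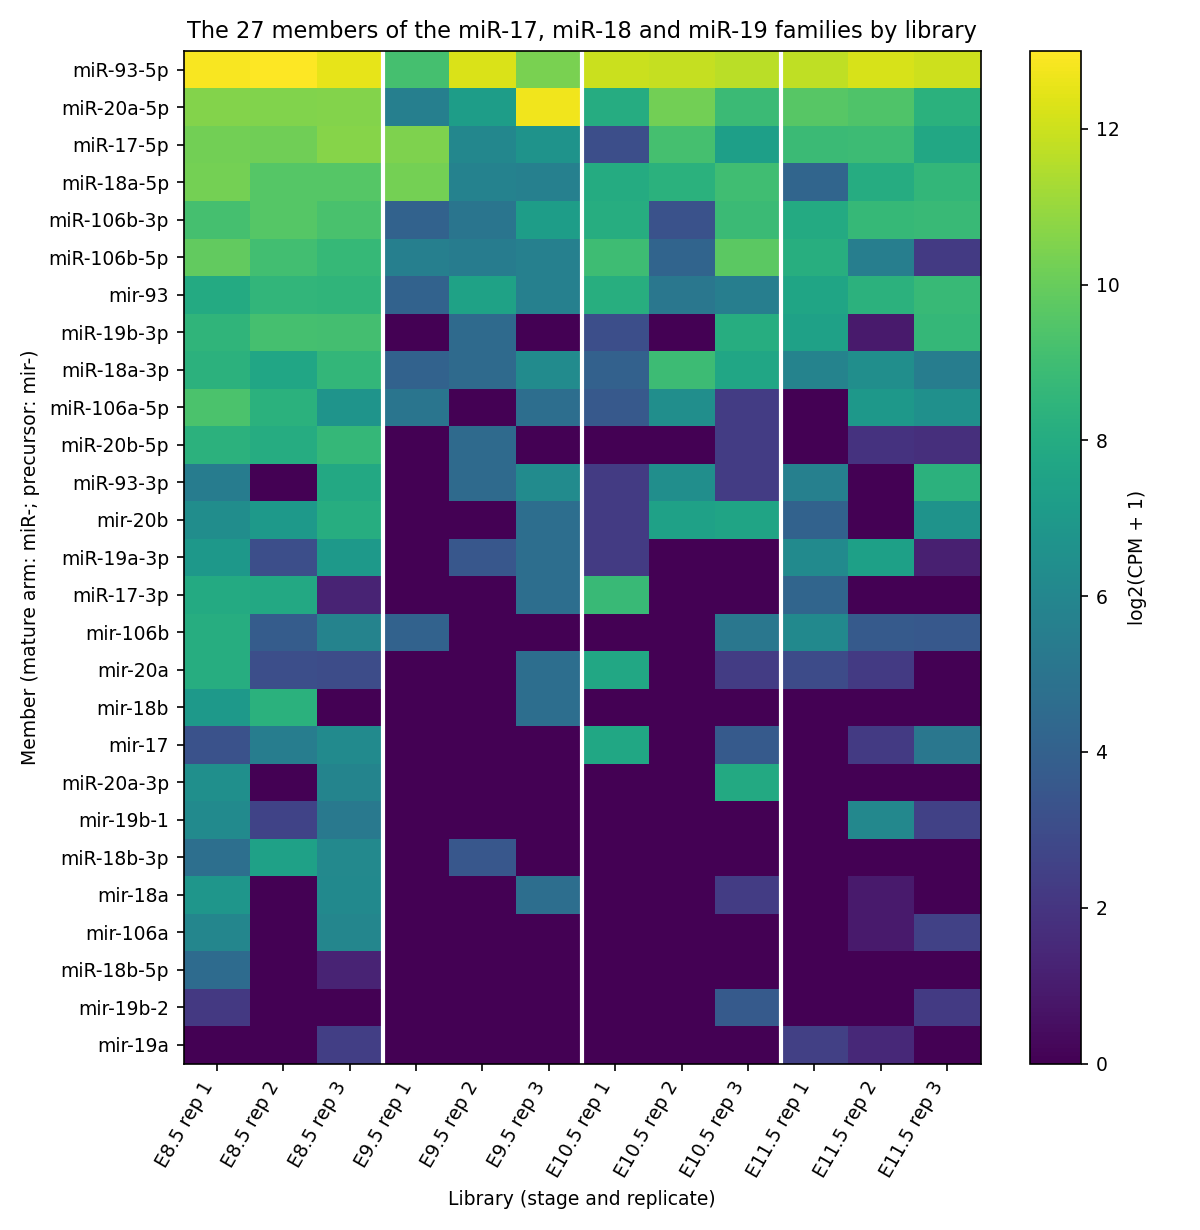
Heat map of log2(CPM + 1) for the 27 members (rows) in the 12 libraries (columns, 3 per stage, white lines between stages). The E8.5 columns are filled for most members, whereas the E9.5 columns hold a few bright members that differ between the 3 libraries, beside low or absent ones.

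Entries with a profile most like that of the summed miR-17 seed family were sought among 357 tested mature entries. The search left out the members, miR-92a, miR-25 and miR-363, and used Spearman correlation of log2 CPM over the 12 libraries. The most similar were miR-708-5p (rho = 0.832), miR-10a-3p (rho = 0.819) and miR-465a-3p, miR-465b-3p and miR-465c-3p (rho = 0.798 each), of which the 3 miR-465 entries had identical counts in all libraries. All were highest at E8.5, with means of 70.4 CPM for miR-708-5p, 205 CPM for miR-10a-3p and 304 CPM for each miR-465 entry. Their later means were 0 to 20.4 CPM, and the correlations share library depth and the step from E8.5 to later stages. At E9.5 their means of 8.43 to 20.4 CPM lay below the floor of 32.0 to 75.9 CPM. The family itself kept means of 4994 to 5277 CPM at the later stages. The likeness is therefore one of rank and not of size, and nothing is drawn from it.

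The miR-302 family, which overlaps the miR-17 seed by 6 bases, was higher at E8.5 and lower at E11.5 than the miR-17 seed family. Its 3p arms summed to 52245, 7154, 1610 and 454 CPM on average from the earliest to the latest stage, so the miR-17 seed family was below it at E8.5 and E9.5 and above it at E10.5 and E11.5 in stage means. The E9.5 libraries did not all share this order. In replicate 3 of E9.5 the miR-17 seed family was at 8244 CPM against 4830 CPM for the miR-302 3p arms.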

How the data were processed

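Small RNA from fluorescence-sorted cells was sequenced in 12 libraries, 3 per stage, after PCR and gel purification with the NEXTflex v3 kit. The authors deposited raw read counts per miRNA entry, with 1 column per library and no normalisation. Per the study's methods and the file headers, the COMPSRA pipeline removed adapters and 4 random bases, kept reads of 17 to 35 bases (to 36 in 2 libraries), aligned them with STAR to mm10 and counted mature and precursor miRNAs. GEO's processing notes list GRCm39 beside mm10. The random bases were not used to collapse reads, so counts include PCR copies. All 12 columns were matched to samples, with 0 columns left over.

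Counts of all entries were tested with edgeR 4.0.16 in R 4.3.3 (glmQLFit and glmQLFTest, TMM factors, filterByExpr with minimum count 10 and minimum total 15). All 12 libraries were fitted with stage as the only factor, and p-values were adjusted by Benjamini-Hochberg over the 571 entries tested, with calls at an adjusted p under 0.05. SE was the size of the log2 fold change divided by the square root of F. In a second table, mature entries were summed by seed (bases 2 to 8). RefSeq held 541 of 633 mature names, and the other 92, with 15.6% of mature counts, stayed single. Of its 535 features 308 were tested. CPM used TMM-scaled library sizes of the entry table, and shares used counts alone. Sequences came from RefSeq (GRCm38.p6) and gene positions from GENCODE M21 (GRCm38). The scripts were tested on simulated data.

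The members and lists were chosen with earlier results of these data known. Members were named with the value in every library if they were among the 7 chosen for this report (miR-17-5p, miR-20a-5p, miR-93-5p, miR-106b-5p, miR-18a-5p, miR-19b-3p and the precursor mir-17) or passed the filter, and the 5 entries of most similar profile by rank correlation. Member sums per cluster, shares and correlations were described without tests. Alternatives were RLE scaling, library size alone, no filter, at least 10 counts in every library, DESeq2 1.42.0, limma voom 3.58.1, mature arms only, counts under 10 set to 0, only the stages compared, a replicate block and leaving out each library.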

Additional observations from a re-analysis of the deposited data

How the results depend on the processing

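For the 3 seed families in 4 comparisons, direction and side of the threshold were unchanged except as follows. For the miR-17 seed, E11.5 against E10.5 turned to −0.11 with RLE scaling and −0.10 with DESeq2, and E11.5 against E8.5 became a call with only the stages compared (−1.03). For the miR-18 seed, E10.5 against E9.5 turned to 0.028 with counts under 10 set to 0. The miR-19 seed for E9.5 against E8.5 was called by DESeq2 (−4.34), and with only the stages compared its E10.5 against E9.5 value could not be computed, since it failed the filter there. Leaving out 1 library gave −1.49 to −0.33 (E9.5 against E8.5), −0.88 to 0.20 (E10.5 against E9.5), −0.16 to 0.30 (E11.5 against E10.5) and −1.14 to −0.91 (E11.5 against E8.5) for the miR-17 seed, where leaving out E9.5 replicate 3 made the first and last a call (−1.49 and −1.12) and gave 0.20 in the second, and leaving out E8.5 replicate 2 or 3 gave −0.15 and −0.16 for E11.5 against E10.5. For the miR-18 seed it gave −3.74 to −0.24 (E9.5 against E8.5), −1.13 to 2.37 (E10.5 against E9.5) and −1.23 to 0.0085 (E11.5 against E10.5, without E11.5 replicate 1), and for the miR-19 seed −1.76 to 2.76 (E10.5 against E9.5). Except where a library is named, the cause was not tested.

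Of the entries, 5.60%, 4.38%, 0.350% and 11.6% were called (32, 25, 2 and 66 of 571) for E9.5 against E8.5, E10.5 against E9.5, E11.5 against E10.5 and E11.5 against E8.5, and 22, 18, 1 and 38 of 308 seeds. Counts of calls moved by over 1.5 times as follows, with shares of the entries that had an adjusted p.
For E9.5 against E8.5, RLE scaling called 50 entries (8.76%), DESeq2 79 (20.7%) and limma voom 17 (2.98%), DESeq2 called 49 seeds, and leaving out 1 library gave 3.22 to 6.28% of entries.
For E10.5 against E9.5, no filter called 50 entries (4.75%), DESeq2 68 (16.9%), limma voom 1 (0.175%) and only the stages compared 11 (4.37%) and 8 seeds. Leaving out 1 library gave 1.01 to 6.01% of entries and 7 to 24 seeds.
For E11.5 against E10.5, no filter called 5 entries (0.475%) and 4 seeds, DESeq2 8 (1.51%) and 12 seeds, and only the stages compared 4 (0.993%) and 2 seeds. At least 10 counts in every library called 1 entry (0.935%), mature arms only 1 (0.267%) and library size alone 2 seeds. Counts under 10 set to 0 called 0 entries (0%) and 0 seeds by edgeR, where 53 of 554 entries and 27 of 304 seeds had an unadjusted p under 0.05. Leaving out 1 library gave 0.152 to 0.718% of entries and 0 to 5 seeds.
For E11.5 against E8.5, at least 10 counts in every library called 43 entries (40.2%), limma voom 147 (25.7%), counts under 10 set to 0 33 (5.96%) and only the stages compared 20.1% of 527, and leaving out 1 library gave 6.10 to 11.4%.
Higher and lower calls of entries split 23 to 9 for E9.5 against E8.5 (44 to 6 with RLE scaling, 14 to 21 with counts under 10 set to 0) and 9 to 16 for E10.5 against E9.5 (1 to 23, and 17 to 10, and 15 to 53 with DESeq2). Those of seeds split 15 to 7 for E9.5 against E8.5 and 6 to 12 for E10.5 against E9.5, 7 to 14 and 10 to 4 with counts under 10 set to 0, and for the latter 2 to 13 with RLE scaling and 5 to 22 with DESeq2. For E11.5 against E8.5, entries split 30 to 36 and, with counts under 10 set to 0, 20 to 13.

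Cluster sums moved by more than their SD in 5 cases. mir-17-92 at E8.5 was 4883 CPM with miR-19b-3p included, and mir-106a-363 was 1133, 46.8 and 161 CPM at E8.5, E9.5 and E10.5 with precursors and 0 CPM at E9.5 with counts under 10 set to 0.

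The labels do not say that replicate numbers pair the libraries, and the data showed no clear pairing. Deviations of same-numbered libraries from their stage means correlated at −0.135 to 0.125, and only for E11.5 against E8.5 did all 6 libraries correlate best with their own number, as a hint from the data and not the design. With the replicate number as a block, 26, 22, 3 and 61 entries and 23, 17, 2 and 40 seeds were called, the miR-18 seed value for E10.5 against E9.5 turned to 0.0084, and miR-20b-5p for E11.5 against E8.5 had an edgeR adjusted p of 0.0501.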
